A study of Caenorhabditis elegans with 24 samples.

Results

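The association of mutant and wild-type BAF-1 with the genome was compared in the intestine of L4 larvae. The 12 intestinal libraries of the 24 in the series entered the comparison, and they gave 6 of its 12 columns of log2 ratios. In the first group, animals whose own gene carried baf-1(G12T) expressed Dam::BAF-1(G12T), and in the second group animals wild type for baf-1 expressed Dam::BAF-1. Each group had 3 fusion libraries and 3 libraries of GFP::Dam made in the same genotype, so that protein and genotype changed together and cannot be told apart. All animals carried a single-copy construct with the hsp16.41 promoter on chromosome II, and the fusion constructs were inserted at ttTi5605. In each construct, mCh::his-58 between FRT sites was removed in the intestine by FLP recombinase under the nhx-2 promoter. The animals were grown for 48 h at 20 °C, and 4000 animals were pooled per library. The study describes its DamID replicates as biological triplicates, and the labels do not say how they were grown.

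BAF-1 is a small protein that binds DNA, lamin and the LEM-domain proteins of the inner nuclear membrane, and in this way ties chromatin to the nuclear envelope. Residue 12 of BAF-1 is the one altered in Nestor-Guillermo progeria syndrome, a human premature aging disease. In DamID, a bacterial methyltransferase fused to the protein methylates adenine in GATC near the places the protein visits, and GFP::Dam reports how accessible each site is. A positive log2 ratio of fusion to GFP::Dam therefore stands for more frequent contact with BAF-1 than accessibility alone gives. Nematode autosomes carry repeats and heterochromatin in their arms, which lie near the envelope, and active genes in their centers.

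The mutated codon lies in the first coding exon of baf-1 (WBcel235, chrIII:9467469-9467591, plus strand), where bases 34 to 36 encode residue 12. The wild-type exon is shown, and the capitals mark the codon that is changed in baf-1(G12T) and in Dam::BAF-1(G12T).

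baf-1, coding part of exon 1: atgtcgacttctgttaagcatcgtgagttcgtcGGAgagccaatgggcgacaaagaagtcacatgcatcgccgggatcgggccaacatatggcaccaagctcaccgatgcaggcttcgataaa

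The signal of each 2 kb bin comes from its GATC sites alone, and stretches of 150 bases (WBcel235, plus strand) with GATC in capitals show what was read in 4 bins that the results turn on. The first lies in F14E5.8, and the second in a bin that overlaps srw-122, of the srw receptor family, but outside that gene. The last ones lie in bins where the ratio was higher with BAF-1(G12T).

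chrII:8421020-8421169: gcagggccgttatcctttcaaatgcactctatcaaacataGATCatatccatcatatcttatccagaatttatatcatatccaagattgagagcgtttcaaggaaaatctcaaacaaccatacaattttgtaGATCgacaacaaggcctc

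chrV:2950035-2950184: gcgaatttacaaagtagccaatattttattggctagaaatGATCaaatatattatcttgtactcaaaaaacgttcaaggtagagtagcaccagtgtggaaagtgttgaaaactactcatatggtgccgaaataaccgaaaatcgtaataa

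chrII:11650512-11650661: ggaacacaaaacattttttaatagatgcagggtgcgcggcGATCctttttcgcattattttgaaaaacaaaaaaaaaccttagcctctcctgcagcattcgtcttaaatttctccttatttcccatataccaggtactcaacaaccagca

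chrIII:8898001-8898150: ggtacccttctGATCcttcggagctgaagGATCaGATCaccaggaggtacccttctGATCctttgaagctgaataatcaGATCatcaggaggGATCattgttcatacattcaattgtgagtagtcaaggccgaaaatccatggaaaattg

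The maps of both proteins were first compared as a whole. BAF-1(G12T) and BAF-1 occupied the same large domains, and no gene, 2 kb bin or 100 kb window differed between them after correction for multiple testing. Across 26962 tested genes the group means correlated with r = 0.91, and across 912 windows of 100 kb with r = 0.99. These are correlations across genes or windows, which are not independent replicates. Limma on the 3 pair differences called 0 genes (0% of those tested), 0 of 33063 bins and 0 of 912 windows at an adjusted p under 0.05. The smallest adjusted p was 0.717 for genes, 0.373 for bins and 0.998 for windows. At an unadjusted p under 0.05 there were 426 genes (1.58%) with a higher and 1208 genes (4.48%) with a lower ratio for BAF-1(G12T). Among bins the counts were 571 (1.73%) and 1378 (4.17%), and among windows 3 (0.329%) and 14 (1.54%). Genes with a difference above 0 in all 3 pairs numbered 3764 (14%), and genes below 0 in all 3 pairs numbered 3387 (12.6%). The central 95% of genes had differences between -2.04 and 1.43, with a median standard error of 0.65, and the central 95% of windows between -0.49 and 0.36, with 0.23.

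The direction of the unadjusted excess rested on the centering. With the deposited centering, which subtracts the mean over the whole genome and puts the median difference of genes at 0.63, 2223 genes were higher and 483 lower at an unadjusted p under 0.05. Limma called 0 genes in that fit as well. Differences below are therefore relative to the median of the tested features.

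The 3 replicate pairs did not show the same differences. Across genes, the difference in pair 1 correlated with that in pair 2 at r = 0.08 and with that in pair 3 at r = -0.03, and pairs 2 and 3 correlated at r = 0.18. Across the 100 kb windows these values were -0.20, -0.49 and 0.49. Pair 1 thus ran against pair 3 over large domains, as the plot of windows shows. Replicate 3 was the most similar between the groups, with r = 0.94 between its BAF-1(G12T) and BAF-1 columns across genes, against 0.75 in replicate 2 and 0.68 in replicate 1.

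**Figure D1:**
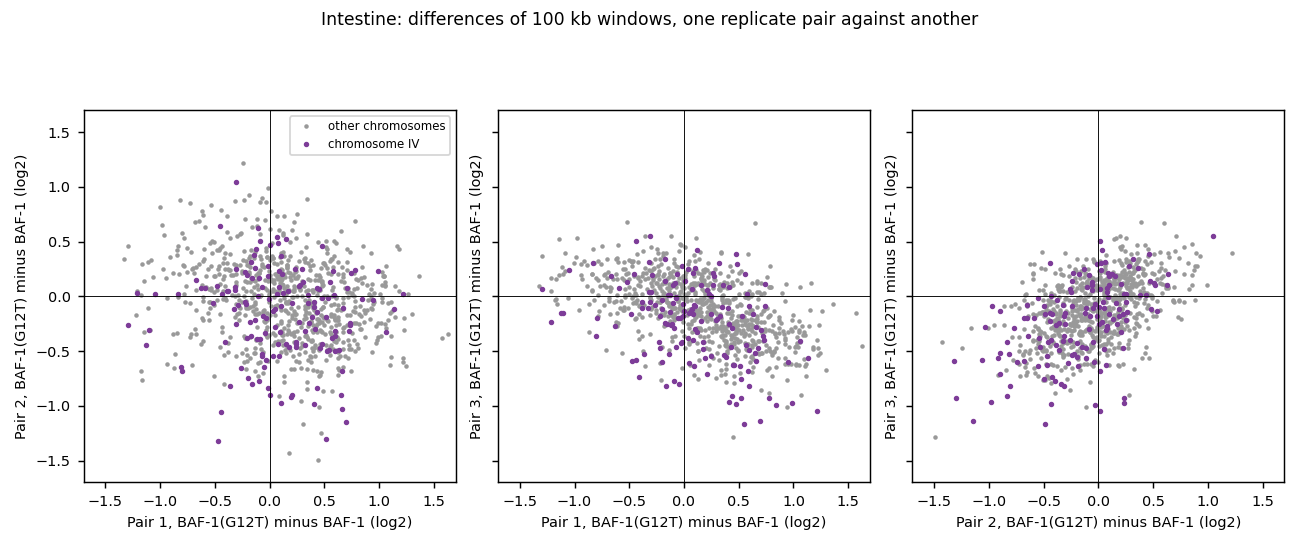
Differences between BAF-1(G12T) and BAF-1 (log2) in 912 windows of 100 kb, with each panel setting one replicate pair against another. Each point is a window and those of chromosome IV are in purple, and the cloud tilts down for pair 1 against pair 3 (r = -0.49) and up for pair 2 against pair 3 (r = 0.49).

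Part of the excess of low ratios moved with read number. A bin without reads takes one fixed value per column, and after centering this value was -1.26, -0.39 and -0.32 in the BAF-1(G12T) columns and -0.32, 3.48 and 0.07 in the BAF-1 columns. BAF-1 replicate 2 thus placed unread sequence well above its median, and the pair difference of an unread bin was -0.94, -3.87 and -0.39. Features at this value in any of the 6 columns were left out, but 11977 of the tested bins (36.2%) still had a column at a value that at most 2 reads per library give. Those bins included 180 with a higher and 1019 with a lower ratio at an unadjusted p under 0.05. The remaining 21086 bins included 391 and 359. When only these bins were fitted and centered on their own median, 348 had a higher and 655 a lower ratio, and 0 were called. The share of bins that could be tested was 16.6% with a single GATC site and 87.1% with at least 10 sites. Of the tested bins with a single site, 7.33% had a lower ratio at an unadjusted p under 0.05, against 2.70% of those with at least 10.

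The lowest p-value of all belonged to a narrow interval on chromosome II. It covers fdgt-2 (WBGene00008799, II, 8417618 to 8419826), the pseudogene WBGene00175025 (8419948 to 8420156) and F14E5.8 (WBGene00195147, 8420098 to 8422186). In bin 8420001 to 8422000 the centered log2 ratio was 1.63, -2.05 and -0.74 with BAF-1(G12T), against 5.13, 4.28 and 5.20 with BAF-1. All 3 mutant columns lay below all wild-type columns, as in 3.6% of tested bins. The mean difference was -5.25 ± 0.76 (SE, n = 3 pairs; limma, adjusted p = 0.373). It was the only bin called in each of the 3 fits that left out a replicate, by limma at an adjusted p of 0.0125 without replicate 1, 0.0493 without replicate 2 and 0.028 without replicate 3. F14E5.8 itself, a protein-coding gene, averaged -0.58 ± 1.94 with BAF-1(G12T) and 4.73 ± 0.52 with BAF-1 (SD, n = 3 each), a difference of -5.32 ± 0.72 (SE; adjusted p = 0.717).

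The interval was narrow. The bin 2 kb to the left had 0.54, -2.20 and -2.53 with BAF-1(G12T) and 2.55, 3.89 and 4.60 with BAF-1. At 4 kb to the left the values were -2.53, -1.57 and -2.93 against -1.95, -1.89 and -3.09, and at 4 kb to the right -0.58, -2.21 and -2.10 against -1.91, -2.89 and -2.68. The bin 2 kb to the right had -2.26, -2.05 and -3.02 against 1.68, -1.96 and -2.98. The high ratio was thus found in all wild-type columns over 2 bins, in mutant replicate 1 at a lower level, and farther right in wild-type replicate 1 alone. In the hypodermis the same bin had -0.44, 2.31 and -0.90 with BAF-1(G12T) and -1.53, 0.63 and 2.40 with BAF-1, and the groups overlapped. The fusion constructs were inserted at ttTi5605 on this chromosome, and the control construct also lies on chromosome II. The labels and methods do not place these insertions on the assembly, and their part in these values was not tested.

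**Figure D2:**
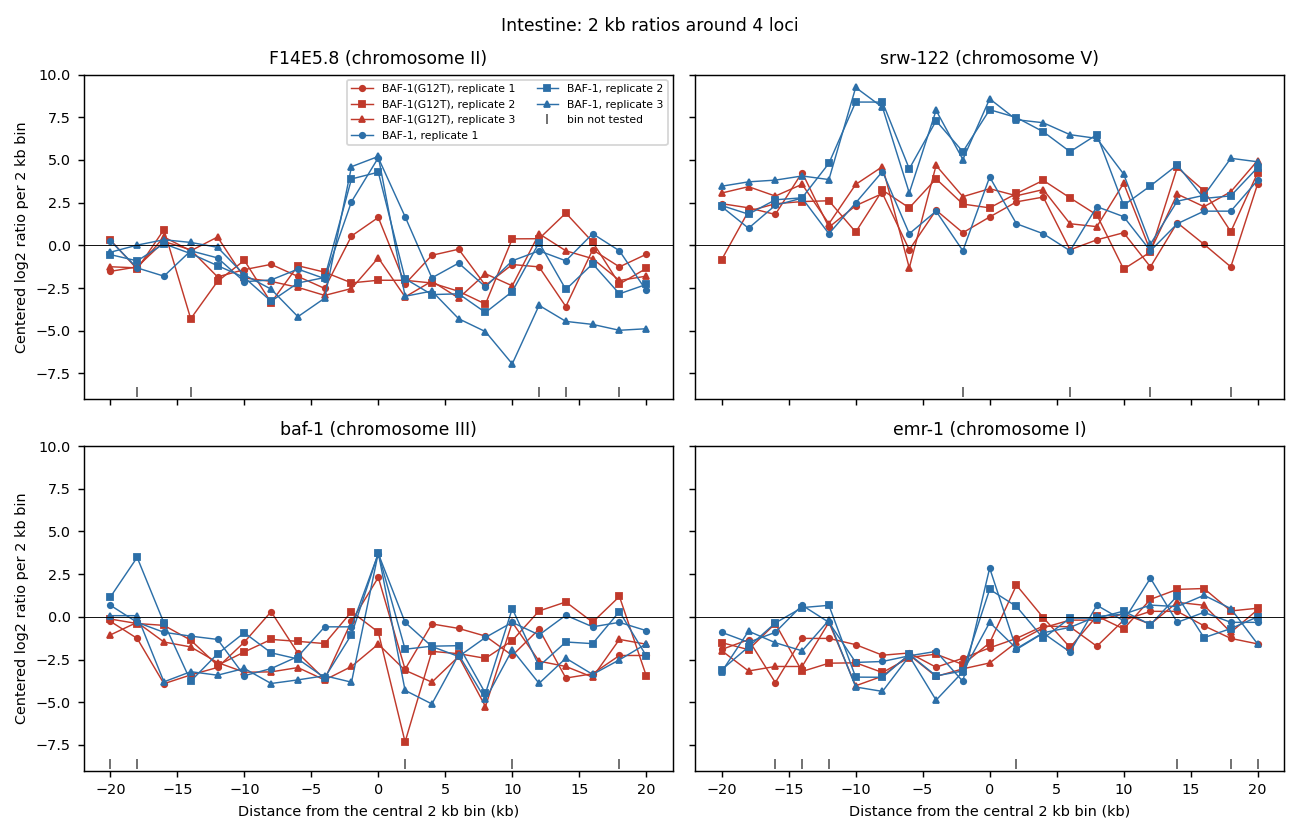
Centered log2 ratios of 2 kb bins against distance (kb) from the central bin at F14E5.8, srw-122, baf-1 and emr-1, with BAF-1(G12T) columns in red and BAF-1 columns in blue. Ticks at the bottom mark bins that were not tested, and at F14E5.8 the central bin reads 5.13, 4.28 and 5.20 in the blue columns.

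The genes for BAF-1 and its partners at the envelope were examined next. baf-1 (WBGene00000235, III, 9467464 to 9468058) had ratios of 2.78, -1.66 and -2.22 with BAF-1(G12T), against 4.53, 3.50 and 2.84 with BAF-1. The lowest wild-type value was just above the highest mutant value, and replicate 1 was the highest of its group in both. The difference was -3.99 ± 0.79 (SE, n = 3 pairs; adjusted p = 0.717). Bin 9466001 to 9468000, which holds most of the gene, was called without replicate 1 (difference -4.98, limma adjusted p = 0.0454). The flanking genes B0464.9 and tag-342, whose counted windows reach into baf-1, had differences of -3.31 and -2.85. The fusion constructs contain baf-1 sequence and the GFP::Dam constructs do not, so reads from the construct and from the gene are counted together.

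emr-1 (WBGene00001309, I, 1842445 to 1843227) encodes emerin, a LEM-domain protein that binds BAF-1. Its ratios were -1.09, -1.63 and -2.51 with BAF-1(G12T), against 3.00, 1.77 and -0.10 with BAF-1, a difference of -3.30 ± 0.64 (SE, n = 3 pairs; adjusted p = 0.717). All mutant columns lay below all wild-type columns, as in 3.28% of tested genes. The bins 2 kb and 4 kb to the left had ratios between -4.88 and -2.02 in all 6 columns, and the bin to the right could not be tested. Both fusion plasmids were built from one that held emr-1 in the place of baf-1, and its part in these values was not tested. hsp-16.41, whose promoter drives the fusions and GFP::Dam, had ratios of 1.38, -1.62 and 0.51 against 2.24, 2.55 and 3.56, a difference of -2.69 ± 0.75 (SE; adjusted p = 0.717). unc-119, the selection marker of the constructs, had a difference of 0.01 ± 0.62 (SE). nhx-2, whose promoter drives FLP, had -3.02, -2.12 and -4.18 with BAF-1(G12T) and -1.01, -1.61 and -3.79 with BAF-1, a difference of -0.97 ± 0.64 (SE; adjusted p = 0.88). These 3 genes were chosen after their values had been seen.

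The other genes of this group did not show differences of that size. lmn-1, the lamin gene, had -0.38, 0.06 and -2.71 with BAF-1(G12T) and -0.76, -1.29 and -2.82 with BAF-1. lem-2, which encodes another LEM-domain protein, had 0.22, -0.96 and -1.97 against -0.90, 0.32 and -2.34. Neither pair of groups was separate, and the differences were 0.61 ± 0.62 and 0.08 ± 0.68 (SE). Of 13 tested genes of BAF-1 and its envelope partners, 5 were above and 2 below 0 in all 3 pairs, and baf-1 and emr-1 were those below. The shares were 14% and 12.6% among all genes, and 16.0% and 10.4% among protein-coding genes. anc-1 and unc-84, which connect the nucleus to the cytoskeleton, had differences of 1.04 ± 0.61 and 0.93 ± 0.63 (SE). The median of the list was 0.53, against 0.08 for all genes.

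**Figure D3:**
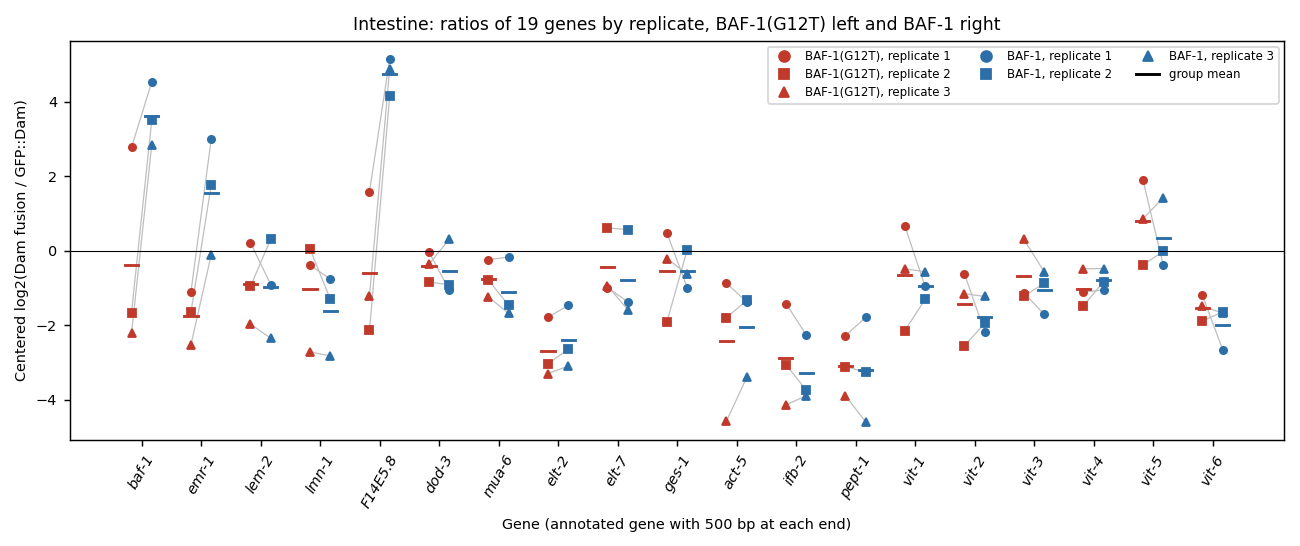
Centered log2 ratios of 19 genes in the intestine, with BAF-1(G12T) in red on the left and BAF-1 in blue on the right of each gene, lines joining replicates of the same number and bars marking group means. The means of baf-1 (-0.37 and 3.62), emr-1 (-1.74 and 1.55) and F14E5.8 (-0.58 and 4.73) stand apart, while those of the other genes lie close together.

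A second domain with lower ratios for BAF-1(G12T) than for BAF-1 was a cluster of srw genes in the left arm of chromosome V. The srw genes encode chemoreceptors of the G protein-coupled class. srw-122 (WBGene00005869, V, 2950712 to 2952202) had ratios of 1.69, 2.15 and 3.26 with BAF-1(G12T), against 3.96, 7.63 and 7.90 with BAF-1. The difference was -4.13 ± 0.74 (SE, n = 3 pairs; adjusted p = 0.717), and the groups did not overlap. srw-137 (V, 2942571 to 2943959) had 2.99, 3.15 and 4.42 against 4.28, 8.29 and 7.81. Its neighbor srw-143 had 2.69, 1.79 and 3.41 against 2.64, 8.47 and 8.04. In each gene, wild-type replicates 2 and 3 were far above every other column, whereas wild-type replicate 1 lay within or near the mutant range. Within 10 kb of the srw-122 bin on either side the wild-type columns 2 and 3 read up to 8.39 and 9.24, and the mutant columns did not exceed 4.68. At the left edge of the cluster srw-141 had 3.90, 2.29 and 5.68 with BAF-1(G12T), against 2.10, 2.44 and 3.52 with BAF-1, and was higher in 2 of 3 pairs with BAF-1(G12T). Without replicate 1, bins 2940001, 2950001 and 2958001 and the 100 kb window from 2900001 were called by limma, with differences of -6.64, -5.51, -4.93 and -1.39. Without replicate 2 or 3 none of these was called. In the hypodermis srw-122 had 2.35, 2.19 and 0.61 with BAF-1(G12T) and 3.63, 1.06 and -0.01 with BAF-1, so that the pattern was not seen there.

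Further bins below 0 in all pairs lay outside these loci. The bins adjacent to the X bin and to the last bin of chromosome II could not be tested. How far the lower ratios extend there is therefore not known. Bin 86001 to 88000 near the left end of the X chromosome, which holds pseudogenes, had 0.97, 2.17 and 2.14 with BAF-1(G12T), against 3.68, 7.80 and 7.07 with BAF-1. The last bin of chromosome II, 15278001 to 15280000, had -4.85, -3.85 and -5.28 against 0.07, -0.98 and -1.19, a difference of -3.96 ± 0.71 (SE). It has 2 GATC sites. In the hypodermis the same bin had -4.51, -0.31 and -1.85 with BAF-1(G12T) and 2.77, 1.87 and 0.60 with BAF-1, and was thus also lower in all 3 pairs. The pseudogene WBGene00044951 in that bin was called without replicate 2 (difference -4.46, limma adjusted p = 0.0127). A bin on chromosome I (14854001 to 14856000) overlapping aex-5, str-245 and unc-54, the body wall muscle myosin, had -3.26, -1.18 and -0.72 against 0.36, 2.16 and 3.52. None of these bins was called in the intestine with all 3 pairs, with an adjusted p of 0.601 each. In the hypodermis the bins on X and on chromosome I were lower in some pairs and higher in others.

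Of the 10 genes named for a low p-value and a lower ratio, which were taken at least 5 kb apart, 4 were piRNA genes of chromosome IV, each a short non-coding germline RNA gene. Of the 26962 tested genes, 3933 were piRNA genes. 21ur-8312 (IV, 16248108 to 16248128) had -2.31, -0.06 and -0.03 with BAF-1(G12T) and 0.64, 4.16 and 4.17 with BAF-1. 21ur-5268, 21ur-12637 and 21ur-8744 had differences of -3.54, -4.13 and -3.39. In each of these 4 genes between 2 and 5 of the 6 columns were at a value given by at most 2 reads per library.

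Higher ratios with BAF-1(G12T) were smaller and scattered. oac-23 (WBGene00018143, IV, 3881441 to 3884688), which encodes a predicted acyltransferase, had 1.86, 0.98 and 0.97 with BAF-1(G12T), against -1.82, -1.71 and -0.96 with BAF-1. The groups did not overlap, as in 2.69% of tested genes in this direction, with a difference of 2.77 ± 0.64 (SE, n = 3 pairs; adjusted p = 0.717). asb-2, which encodes a subunit of mitochondrial ATP synthase, had -1.89, -0.17 and -2.51 against -4.06, -2.69 and -4.80. The other 8 genes named by the same rule had differences between 2.27 and 2.95. Bin 11650001 to 11652000 on chromosome II, which holds parts of coa-7 and rad-23, had -1.02, 1.66 and -1.32 against -3.78, -3.03 and -4.25, a difference of 3.46 ± 0.71 (SE; adjusted p = 0.75). All mutant columns lay above all wild-type columns there, as in 2.87% of tested bins. A bin in fkh-9, a forkhead factor gene (X, 3820001 to 3822000), had 0.78, -0.49 and -2.99 against -2.91, -2.97 and -6.89. Bins in mec-2, which is required in touch neurons, and ram-5 on the X chromosome had differences of 3.32 ± 0.80 and 2.86 ± 0.70 (SE). The bin 8898001 to 8900000 of chromosome III, with the pseudogene WBGene00014987, had 0.09, 0.96 and -0.49 against -3.78, -1.40 and -3.13.

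Whole chromosomes were compared as the mean of a chromosome minus the mean of the rest of the genome. Chromosome IV was 0.02, 0.06 and 0.08 above the rest with BAF-1(G12T), against 0.09, 0.20 and 0.21 with BAF-1, a difference of -0.11 ± 0.04 (SD, n = 3 pairs). The X chromosome was at -0.31, -0.20 and -0.21 against -0.31, -0.31 and -0.32, a difference of 0.08 ± 0.06 (SD, n = 3 pairs). Chromosomes I, II and X were higher in all 3 pairs and chromosome IV was lower in all 3, while III and V were mixed. The exact sign-flip test gave p = 0.25 for each of these 4, the smallest value that 3 pairs allow, and 0.375 after adjustment over the 6 chromosomes. All differences were below 0.12 in size, far under the differences between chromosomes, which spanned -0.60 for III to 0.61 for V with BAF-1(G12T).

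Along chromosome IV the mean difference was -0.09 ± 0.21 in the left arm, -0.10 ± 0.06 in the center and -0.15 ± 0.39 in the right arm (SD, n = 3 pairs). Windows of 100 kb were counted next, and as none was called, they do not locate the difference. Of the 14 windows with a lower ratio at an unadjusted p under 0.05, 9 were on chromosome IV, which holds 146 of the 912 windows. None of the 3 with a higher ratio was there. On this chromosome 28 windows were below and 13 above 0 in all 3 pairs, against 10.4% and 9.87% of all windows. The window from 6800001 averaged -0.45 ± 0.60 with BAF-1(G12T) and 0.35 ± 0.31 with BAF-1 (SD, n = 3 each; difference -0.80 ± 0.24, SE; adjusted p = 0.998). The window from 4800001 averaged 0.70 ± 0.48 against 1.39 ± 0.47, and it contains 149 piRNA genes. The window from 14600001, with 407 piRNA genes, averaged -0.16 ± 0.39 against 0.41 ± 0.36. On chromosome I the window from 4300001 had differences of 0.65, 0.60 and 0.67 in the 3 pairs, the most even of all named windows. Its levels were -1.84 ± 0.86 with BAF-1(G12T) and -2.47 ± 0.87 with BAF-1 (SD, n = 3 each). It contains anc-1, whose higher ratio is given above, so gene and window share reads. The X chromosome had 26 windows above and 11 below 0 in all pairs.

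Whether the mutation flattens or sharpens the contrast between arms and centers depended on the replicate. Over all autosomes, arms exceeded centers by 1.71, 1.70 and 2.23 with BAF-1(G12T), against 1.24, 1.91 and 2.53 with BAF-1. The mean was 1.88 ± 0.30 with BAF-1(G12T) and 1.89 ± 0.65 with BAF-1 (SD, n = 3 each), and the pair differences were 0.47, -0.21 and -0.31 (exact sign-flip p = 1). Every autosome showed the same order, with a larger contrast for the mutant protein in pair 1 and a smaller one in pairs 2 and 3. The centers of chromosomes I to III differed by less than 0.03 in the mean. The center of IV differed by -0.10 ± 0.06 and that of V by -0.09 ± 0.14 (SD, n = 3 pairs).

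Ranking the bins by their ratio for BAF-1 in the hypodermis, which shares no library with these columns, gave the same picture. From the lowest to the highest quintile, pair 1 read -0.24, -0.10, 0.05, 0.30 and 0.74. Pair 2 read 0.06, -0.04, -0.15, -0.17 and -0.002, and pair 3 read 0.14, -0.02, -0.19, -0.30 and -0.35. The top quintile exceeded the bottom quintile by 3.65 ± 0.38 with BAF-1(G12T) and 3.50 ± 1.07 with BAF-1 (SD, n = 3 each), and the exact sign-flip test of the difference gave p = 1. The interquartile range across genes was 3.22, 3.13 and 4.08 in the BAF-1(G12T) columns and 2.58, 3.40 and 4.80 in the BAF-1 columns, in the same order between pairs.

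**Figure D4:**
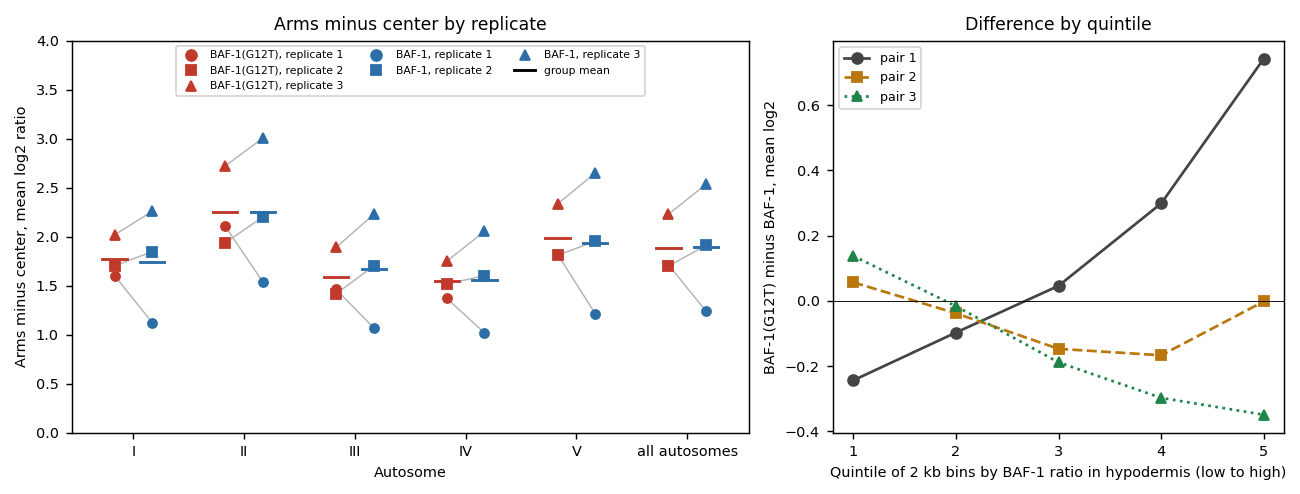
Left, arms minus center in mean log2 ratio for each autosome, with BAF-1(G12T) in red to the left of BAF-1 in blue, lines joining replicate pairs and bars marking means. Right, BAF-1(G12T) minus BAF-1 (mean log2) by quintile of the bins ranked by BAF-1 ratio in the hypodermis, where pair 1 reaches 0.74 and pair 3 -0.35 in the highest quintile.

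Genes that define the intestine had low ratios for both proteins, as active genes did in general. The median over 27 tested genes of intestinal identity and function was -2.65 with BAF-1(G12T) and -2.39 with BAF-1, against -0.09 and -0.11 over all genes. Of these genes, 3 (11.1%) were above and 6 (22.2%) below 0 in all pairs. The shares were 14% and 12.6% among all genes, and 16.0% and 10.4% among protein-coding genes. Of the intestinal genes, 0 reached an unadjusted p under 0.05, which 6.06% of all genes did. elt-2, the GATA factor that specifies the intestine, had -1.78, -3.03 and -3.29 with BAF-1(G12T) and -1.46, -2.64 and -3.09 with BAF-1. It was lower in all pairs by a small amount, with a difference of -0.30 ± 0.60 (SE). act-5, the actin of the microvilli, had a difference of -0.38 ± 0.64, ges-1, a gut esterase gene, of -0.01 ± 0.76, and pept-1, a peptide transporter gene, of 0.12 ± 0.62 (SE). fat-7 and fat-6, which encode stearoyl-CoA desaturases, were lower in all pairs by 1.09 ± 0.64 and 0.89 ± 0.67 on average, and fat-5, another desaturase gene, was higher by 0.70 ± 0.62 (SE). As DamID reads contact with chromatin and not transcripts, these genes do not test the tissue label in the way RNA would. Markers of the hypodermis had medians of -1.02 and -1.36 and germline markers of 1.64 and 1.36 for BAF-1(G12T) and BAF-1.

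The vitellogenin genes, which encode yolk proteins of the adult intestine, differed little. vit-5 had 1.91, -0.38 and 0.86 with BAF-1(G12T) and -0.37, -0.01 and 1.42 with BAF-1. The differences of the 6 genes ranged from -0.24 to 0.46, and each had a standard error above 0.6. Only vit-4 had the same sign in all pairs, and its difference in pair 3 was -0.007.

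Genes whose RNA polymerase occupancy differs in the intestine of baf-1(G12T) animals were then examined. These lists come from the study and rest on other libraries. Of 68 tested genes with higher occupancy in the mutant, 14 were above and 5 below 0 in all pairs, with a median difference of 0.22. Of 50 tested genes with lower occupancy, 10 were above and 6 below 0, with a median of -0.01, where the median over all genes was 0.08. The share above 0 in all pairs was 20.6% and 20.0% in the lists, 14% among all genes and 16.0% among protein-coding genes. It was 21.3% among genes with polymerase in both tissues and 18.8% among those with polymerase in the intestine only. The list with higher occupancy stood -0.02, 0.43 and 0.22 from the median of all genes in the 3 pairs, and that with lower occupancy -0.05, -0.05 and 0.17. F14E5.8 and emr-1 belong to the list with lower occupancy and had differences of -5.32 and -3.30. F18E2.15 of that list had -3.39 ± 1.21 (SE), but without the same sign in all pairs. T09A12.1 and F26A3.4, of the list with higher occupancy, had differences of 1.97 ± 0.68 and 1.72 ± 0.61, and F26G1.10 of the same list had -3.08 ± 0.83 (SE).

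Transcribed genes as a class sat slightly above the median of all genes. Genes with polymerase in the intestine only (987 tested) were 0.11, 0.08 and 0.18 above it in the 3 pairs. Genes occupied in both tissues (470) were at -0.002, 0.13 and 0.21, and genes occupied in the hypodermis only (1350) at 0.14, 0.06 and 0.12. The difference between these lists was not tested. The protein-coding class as a whole was 0.09, 0.07 and 0.06 above the median.

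Some gene families changed sign between the replicate pairs, and others kept it. Of all tested protein-coding genes, the class these families belong to, 16.0% were above and 10.4% below 0 in all pairs. The 74 ribosomal protein genes were -0.83 from the median of all genes in pair 1 and 0.44 and 0.52 in pairs 2 and 3. The 139 col genes, which encode cuticle collagens, were at 0.93, -0.16 and 0.26, with 34 (24.5%) above and 4 (2.88%) below 0 in all pairs, against 14% and 12.6% of all genes. The 58 genes for UDP-glucuronosyltransferases, which conjugate foreign compounds, were at -0.96, -0.92 and 0.08, with 2 (3.45%) above and 14 (24.1%) below 0 in all pairs. ugt-17 and ugt-55 had differences of -3.11 ± 0.89 and -2.31 ± 0.70 (SE). The C-type lectins, some of which act in defense against bacteria, were above the median in all pairs (0.70, 0.22 and 0.04), with 44 of 206 genes above (21.4%) and 17 below (8.25%) 0 in all pairs. The str chemoreceptor genes were below it in all pairs (-0.18, -0.54 and -0.33), with 17 of 155 above (10.97%) and 34 below (21.9%) 0 in all pairs, against 14% and 12.6% of all genes, and str-190 and str-48 had differences of -3.36 ± 0.87 and -2.56 ± 0.71 (SE). The srw genes were at -0.07, -0.36 and -0.27.

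Among gene classes the piRNA genes had the lowest median of the mean difference, although tRNA, lincRNA and miRNA genes stood lower in pair 1 (-0.77, -0.41 and -0.35 from the median of all genes). The median difference over 3933 tested piRNA genes was -0.34. Of these genes, 269 were above (6.84%) and 911 below (23.2%) 0 in all pairs, against 14% and 12.6% of all genes. They stood -0.20, -0.39 and -0.51 from the median of all genes in the 3 pairs. Most overlap and share reads, and they formed 1262 separate regions, of which 85 were above (6.74%) and 294 below (23.3%) 0 in all pairs. On chromosome IV 26.1% of the regions were below 0 in all pairs, and elsewhere 14.7%. Only 44.9% of the tested piRNA genes, against 67.9% of all genes, had no column at a value given by at most 2 reads per library. Among these better-read piRNA genes the median difference was -0.07, against 0.18 over all better-read genes. Of these piRNA genes, 9.39% were above and 14.6% below 0 in all pairs, against 16.2% and 9.04% of all better-read genes. Pseudogenes, tRNA genes and miRNA genes had median differences of 0.04, -0.02 and 0.08.

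**Figure D5:**
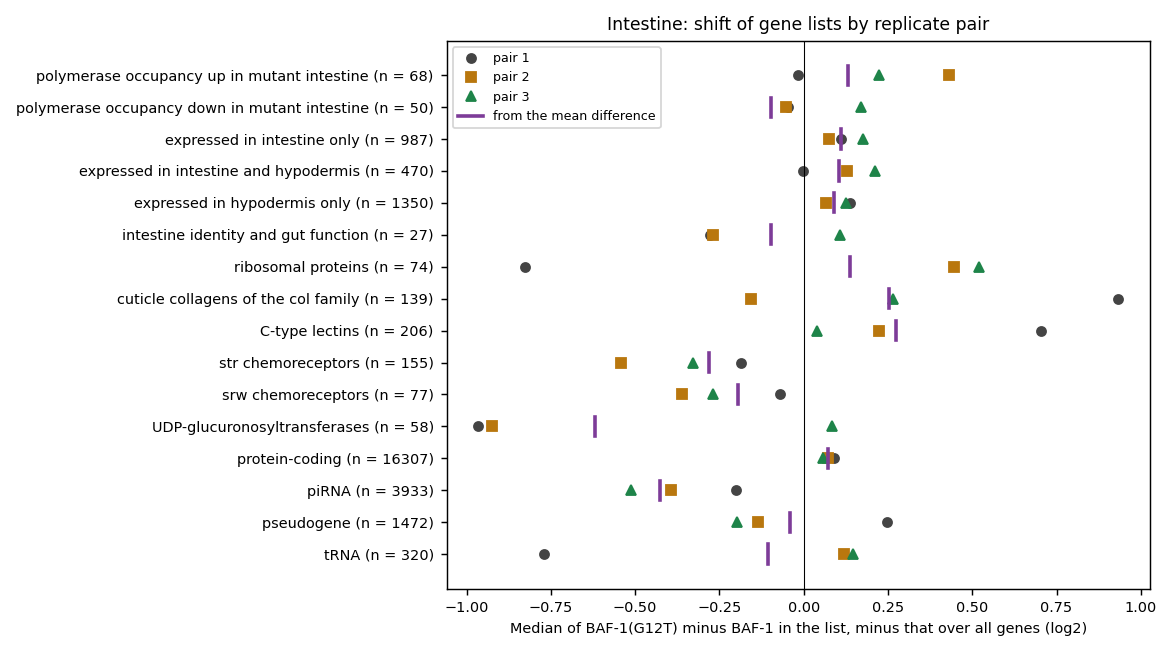
Shift of 16 gene lists and classes, as the median difference between BAF-1(G12T) and BAF-1 (log2) in the list minus that over all genes, with one symbol per replicate pair and a bar for the shift of the mean difference. The piRNA genes lie left of 0 in all pairs (-0.20, -0.39 and -0.51), while the ribosomal protein genes range from -0.83 to 0.52.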

How the data were processed

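DamID was measured in 12 intestinal libraries, in 2 genotypes with 3 replicates of fusion and 3 of GFP::Dam each. Per the methods of the study, reads with the DamID adapter that mapped to GATC sites of ce11 were assigned to 2 kb bins and to genes with 500 bp at each end, a pseudocount of 1 was added, and the log2 ratio of relative reads was formed and its genome mean subtracted by the authors. No aligner is named in the labels or methods. The deposited log2 ratios carry no counts per feature, so no counting interval is given. The study lists reads per library in a supplement, which was not used here, and the part of library depth in these values was not tested. The deposited adjusted p-values, made by the authors with DESeq2, compare fusion with GFP::Dam; they served only as present or missing in an alternative filter, and the deposited average was not used. The columns of the hypodermis libraries served only to rank bins and to compare the tissues.

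Features at the most frequent value of any of the 6 columns, which a feature without reads takes, were left out. This kept 26962 of 46374 genes and 33063 of 50139 bins. Each column was then centered on its median over these features, so all values are relative to that median, with the deposited centering as an alternative. Windows of 100 kb are means of at least 25 of 50 bins. Gene names and positions are from the Ensembl 115 annotation of WBcel235, the same assembly as ce11. Of the bins without GATC in this genome, 99.6% were at the most frequent value in all 6 columns. Sequence was read from the RefSeq copy of that assembly.

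The replicate number was used as a pair. Deviations from the group means correlated between same-numbered columns at 0.25, 0.24 and 0.44 across genes, and at most at 0.07 between other numbers. Across 100 kb windows these values were 0.43, 0.55 and 0.86, and 0.60 between other numbers, so the windows alone do not separate the numbers. The 3 deviations within a group cancel out, so positive values for the same number pull down those between other numbers. The contrast between them therefore does not test the pairing on its own. Limma 3.58.1 in R was fitted to the 3 differences with robust empirical Bayes moderation and Benjamini-Hochberg adjustment, and tested on simulated data. Single values were tested by exact sign-flip tests. All tests were two-sided. Named genes were a fixed set, the 10 genes with the lowest p-value in each direction with 1 sign in all pairs and at least 5 kb apart, the 5 bins and windows likewise at least 100 kb apart, and up to 4 members per list. Members and lists were chosen with earlier results of these data known. The markers of muscle and neurons gave shifts of 0.31 and 0.12 from all genes, and those of hypodermis and germline 0.38 and 0.33.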

Additional observations from a re-analysis of the deposited data

Results flagged for a closer look

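The difference between BAF-1(G12T) and BAF-1 on chromosome I relative to the rest of the genome had opposite signs in both tissues. In the intestine it was 0.06, 0.01 and 0.04 in the 3 pairs, with a mean of 0.04, and in the hypodermis -0.08, -0.24 and -0.08, with a mean of -0.14. The intestine value exceeded the hypodermis value by 0.17. An exact permutation of the pairs between tissues gave p = 0.1, the smallest that 3 against 3 allow, so the difference did not pass. The item was flagged because all 3 pairs of each tissue shared a sign that was opposite in the other tissue. That rule fixes this p in advance, so the test cannot decide whether the tissues differ.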

How the results depend on the processing

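With all 3 pairs, no gene or bin was called under any alternative tried, and windows only with no filter on unread bins, where 51 were called, all lower and 29 on chromosome IV; that setting keeps the fixed values of unread bins. Leaving out a replicate gave 0 to 4 called genes, 2 to 28 bins and 0 to 2 windows: the 4 genes without replicate 2, the 28 bins (4 higher, 24 lower) without replicate 3, and 8 bins and the 2 windows without replicate 1. Without the replicate block, 0 features were called, and an unadjusted p under 0.05 was reached by 821 genes, 1017 bins and 1 window, so the pairing changed no call. With the deposited centering 1363 bins were higher and 778 lower at that level, and 91 windows higher and 0 lower.

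The arm contrasts were near 0 and changed sign easily. The difference in arms minus center became 0.018 for IV and 0.019 for all autosomes in features with an adjusted p in both tables, and 0.015 and 0.014 with columns scaled to the same interquartile range. It became -0.078 for I, -0.127 for II and -0.0090 for V with no filter, -0.177, -0.150 and -0.109 with medians of bins (chromosome III minus the rest 0.089), and -0.030, -0.035 and -0.065 without low-read values, a setting chosen after seeing the data. Leaving out a replicate gave -0.193 to 0.167 for I, -0.275 to 0.152 for II, -0.311 to 0.055 for III, -0.196 to 0.133 for IV, -0.228 to 0.232 for V and -0.259 to 0.131 for all autosomes. It gave -0.273 to 0.464 for the top minus the bottom quintile and -0.052 to 0.072 for chromosome III.

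Among the genes, signs turned with the deposited centering for act-5 (0.17), ges-1 (0.53), vit-4 (0.31) and elt-2 (0.25), with the adjusted p filter for ges-1 (0.030), with the same interquartile range for pept-1 (-0.055), and without low-read values for lem-2 (-0.11), dod-3 (-0.040) and pept-1 (-0.063). Leaving out a replicate gave lem-2 -0.45 to 0.75, act-5 -0.82 to 0.023, ges-1 -0.75 to 0.94, dod-3 -0.30 to 0.55, pept-1 -0.17 to 0.42, vit-1 -0.38 to 0.84, vit-2 -0.26 to 0.81, vit-5 -0.46 to 0.96 and vit-6 -0.034 to 0.82. The cause of these changes was not tested. The deposited files hold no reads per feature, so no limit that depth sets on single features is given.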
